A study of Mus musculus with 6 samples.

Results

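The BH3-only genes encode small proteins that start the mitochondrial path of cell death. Their expression was followed here in acute lymphoblastic leukaemia of the mouse driven by BCR-ABL1, in cells that had or lacked AID. Members were all probe sets of the array annotated to exactly 1 of 10 symbols (Bbc3, Pmaip1, Bcl2l11, Bid, Bad, Bmf, Bik, Hrk, Bnip3 and Bnip3l). This gave 21 probe sets of 9 genes, out of 45037 probe sets and 18193 genes measured. Bnip3l had no probe set of its own, because all 3 of its probe sets are also annotated to a pseudogene. Of the 21, 17 had a mean above that of the median probe set, and none was filtered out for a low value.

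The series compared gene expression between AID-expressing and AID-deficient leukaemia, with 3 arrays a group. Both groups were leukaemia cells of the Balb/c strain: AID-/- lacked AID and AID+/+ had it intact. All the leukaemias were driven by BCR-ABL1, the tyrosine kinase made by the Philadelphia chromosome, per the title. The labels call the arrays biological replicates but do not say how the fusion was introduced or whether the leukaemias of a group arose in separate animals. The p-values therefore measure only the spread between these samples, which may be technical.

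Every value is an RMA expression value on the log2 scale, on which 1 unit is a doubling. The array medians lay between 4.85 and 4.90. The gene that separates the genotypes was not analysed here, so the genotype labels were not checked against it. Of the B-lineage markers, 7 of 9 did not differ beyond the threshold, which does not test the label itself. Cd79a, Vpreb1 and Igll1 had group means of 11.98 to 13.19, and Pax5 had 7.55 in AID-/- and 7.92 in AID+/+. Blnk was higher (12.54 against 10.45) and Cd22 lower (8.38 against 11.19) in AID-/- leukaemia. Of the markers of other cell types, 0 of 5 erythroid, 0 of 4 megakaryocyte and 0 of 7 stromal and endothelial ones were called, and 1 of 8 myeloid ones (Lyz2, higher, adjusted p = 0.0463). These 4 lists lay between 2.54 and 6.89 on every array. Xist lay between 4.35 and 6.02 on the AID-/- arrays and between 11.93 and 12.18 on the AID+/+ arrays, and the Y-linked gene Kdm5d ran the opposite way. Throughout, sex and genotype therefore cannot be told apart. In bulk RNA, fewer cells of a type and less RNA per cell cannot be told apart either.

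BH3-only proteins share a short helix, the BCL2 homology 3 domain, that fits into a groove of BCL2 and its survival relatives. Some of them (BIM, BID and PUMA) are also known to engage BAX and BAK directly, the proteins that perforate the outer mitochondrial membrane. The others (NOXA, BAD, BMF, BIK and HRK) are known mainly for occupying survival proteins. In B-lineage cells these genes set the threshold for death after loss of growth signals or DNA damage. BNIP3 and BNIP3L carry a weaker BH3-like motif and are best known as receptors for mitophagy, the removal of mitochondria.

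BH3-only transcripts were higher in AID-/- leukaemia at 10 of the 21 probe sets and lower at 0, by limma with Benjamini-Hochberg adjustment over all probe sets and a threshold of 0.05. At an unadjusted p under 0.05, 11 were higher and 0 lower. Across all probe sets 14.6% were called, 7.24% as higher and 7.39% as lower. The called probe sets belong to 5 genes, Pmaip1, Bcl2l11, Bid, Bmf and Bad. Their differences, AID-/- minus AID+/+, ran from 0.56 to 1.68, and only Pmaip1 changed by more than 1 log2 unit. Bbc3, Bik, Hrk and Bnip3, with 7 probe sets in all, had none called. Outside the 21, the 3 probe sets annotated to both Bnip3l and its pseudogene were called lower, by 1.45 to 1.52. The median difference of the 21 probe sets was 0.56, against -0.04 over all probe sets. The groups did not overlap at 11 of them, each time with AID-/- above AID+/+. Over all probe sets the groups did not overlap at 32.9%, and 14.2% had AID-/- above. Read by the brightest probe set of each gene (highest mean over the 6 arrays), 4 of 9 genes were higher, 0 lower and 5 did not pass. Over all genes read this way 17.1% were called, 9.49% as higher, and the groups did not overlap at 36.5%. The median difference was 0.13 for the 9 genes and -0.03 for all.

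**Figure D1:**
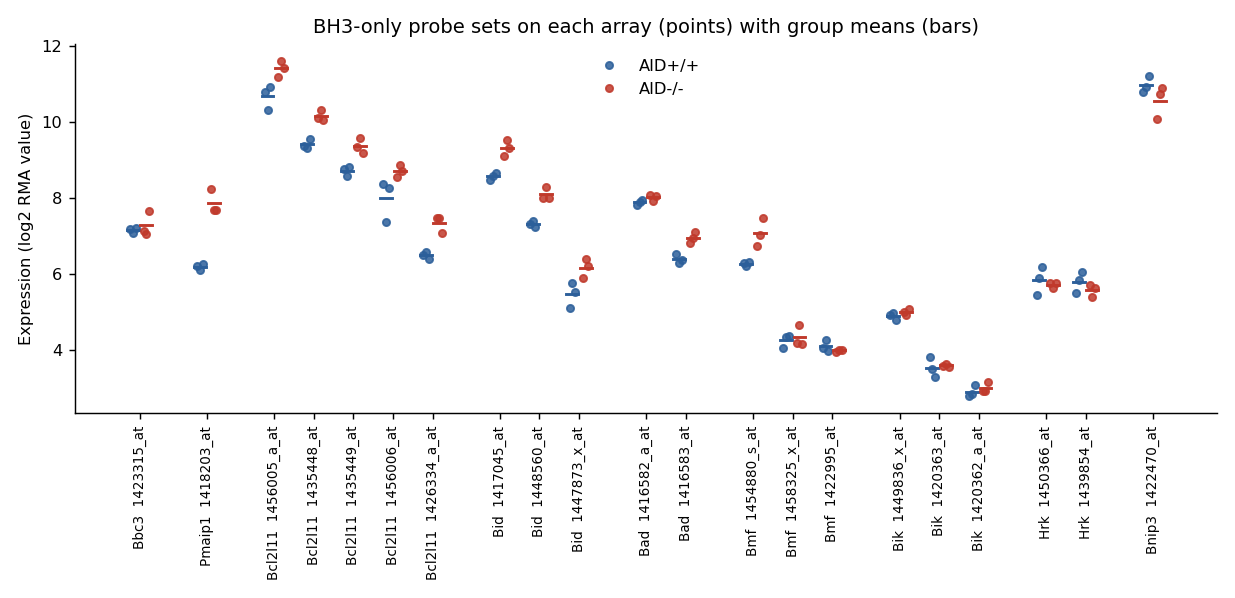
Log2 RMA values (vertical axis) of the 21 BH3-only probe sets on each array, grouped by gene; blue points are the 3 AID+/+ arrays, red points the 3 AID-/- arrays, and bars the group means. The groups are apart at Pmaip1, at all 5 probe sets of Bcl2l11 and all 3 of Bid, and at 1 probe set each of Bad and Bmf.

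**Figure D2:**
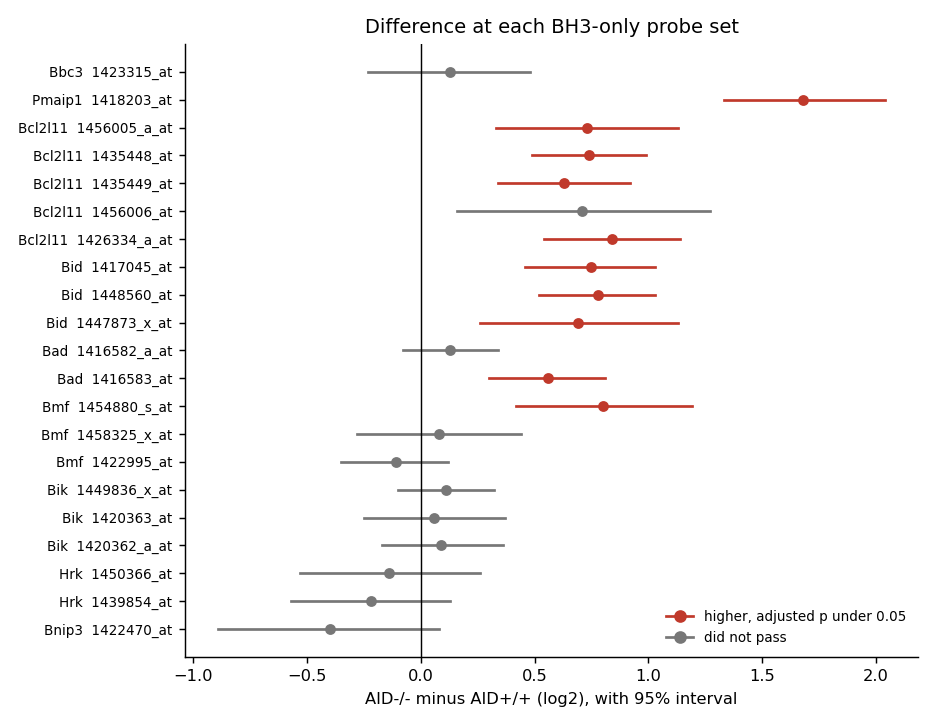
Difference between groups at each probe set (horizontal axis, log2), with the 95% interval from the moderated standard error; red marks an adjusted p under 0.05 and grey a probe set that did not pass. Pmaip1 stands at 1.68 and the other called probe sets lie between 0.56 and 0.84.

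Bcl2l11 encodes BIM, which is known to remove B cells that are starved of growth signals or react to self. It rose in AID-/- leukaemia at 4 of its 5 probe sets, by 1.55- to 1.79-fold. At the brightest probe set, 1456005_a_at, the AID-/- arrays stood at 11.19, 11.62 and 11.44 and the AID+/+ arrays at 10.80, 10.33 and 10.94. All AID-/- values were above all AID+/+ values, with AID+/+ replicate 2 the lowest. The difference was 0.73 (SE 0.18, adjusted p = 0.0260). At 1435448_at the values were 10.12, 10.32 and 10.06 in AID-/- and 9.37, 9.33 and 9.56 in AID+/+. The groups were again apart, by 0.74 (SE 0.11, adjusted p = 0.00306). Probe set 1426334_a_at gave 7.48, 7.47 and 7.08 against 6.52, 6.60 and 6.40, a difference of 0.84 (SE 0.13, adjusted p = 0.00376). At 1435449_at the difference was 0.63 (SE 0.13, adjusted p = 0.0120). The fifth probe set, 1456006_at, read 8.57, 8.87 and 8.73 in AID-/- and 8.38, 7.38 and 8.27 in AID+/+. AID+/+ replicate 2 was far below the rest of its group (SD 0.55), and the difference of 0.71 did not pass (adjusted p = 0.0935). Without that array it was 0.40 (adjusted p = 0.0978). The 4 called differences lay within 0.63 to 0.84 although the probe sets differ widely in brightness. Dropping AID-/- replicate 2, AID-/- replicate 3, AID+/+ replicate 1 or AID+/+ replicate 2 ended the call at 1456005_a_at (adjusted p of 0.0716, 0.0767, 0.0581 and 0.0599). No single array ended the calls at the other 3.

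FOXO transcription factors are known to switch on Bcl2l11 when growth factor signalling stops, and the messenger RNAs of Foxo1 and Foxo4, but not Foxo3, passed the test (given with the regulators). The bases before the start sites are shown for this reason, for 2 genes that rose, Bcl2l11 and Bmf, and for Bnip3, which is a known target of hypoxia-inducible factor (HIF). The windows searched, 13 of 250 bases each, lay before RefSeq start sites (GRCm38.p6 assembly) of 7 of the 10 genes. No window of Pmaip1, Bik or Bnip3l was searched. Capitals mark the FOXO element GTAAACA or the HIF core ACGTG, searched on both strands; ACGTG on both strands at adjoining positions is the palindrome CACGTG. The windows are chr2:128125788-128126037 on the plus strand for Bcl2l11, chr2:118549687-118549936 on the minus strand for Bmf and chr7:138909507-138909756 on the minus strand for Bnip3. The Bbc3 line is a short stretch, chr7:16310084-16310110 on the plus strand, with the FOXO element on the opposite strand.
Bcl2l11: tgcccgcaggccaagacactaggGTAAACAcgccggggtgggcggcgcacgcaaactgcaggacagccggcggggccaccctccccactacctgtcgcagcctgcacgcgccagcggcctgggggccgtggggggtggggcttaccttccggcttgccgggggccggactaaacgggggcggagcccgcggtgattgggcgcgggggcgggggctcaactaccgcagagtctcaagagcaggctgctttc
Bmf: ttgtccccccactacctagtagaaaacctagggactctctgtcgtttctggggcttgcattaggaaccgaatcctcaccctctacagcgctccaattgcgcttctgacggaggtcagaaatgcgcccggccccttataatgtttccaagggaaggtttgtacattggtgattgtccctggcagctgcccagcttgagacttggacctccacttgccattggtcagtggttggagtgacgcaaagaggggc
Bnip3: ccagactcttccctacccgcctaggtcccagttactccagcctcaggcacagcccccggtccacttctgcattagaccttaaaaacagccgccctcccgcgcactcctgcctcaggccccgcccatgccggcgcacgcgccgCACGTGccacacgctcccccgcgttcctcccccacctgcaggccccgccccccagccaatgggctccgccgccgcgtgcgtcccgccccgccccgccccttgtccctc
Bbc3: ctggcgggttTGTTTACaaacaatggg

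The FOXO element lay 227 bases before the first Bcl2l11 start and 167 bases before 1 of the 3 Bbc3 starts, so in 2 of 13 windows; 3.17% of the 32851 windows in the table hold it. Of these 2 genes, Bcl2l11 rose and Bbc3 was not called. The HIF core was in 2 of 13 windows, those of Bnip3 and of another Bbc3 start, both times as CACGTG, and in 16.6% of all windows. None of the 13 windows held the full p53 response element, which 0.0639% of all windows hold. Pmaip1 was not among the genes searched, so the element was not looked for there. The shares over all windows include chr18, which the 13 windows do not. GC content was 72.0% before Bcl2l11, 72.4% before Bnip3 and 54.0% before Bmf. A match describes the letters only.

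Bid encodes the protein that caspase-8 cleaves to carry a death receptor signal to mitochondria. It rose in AID-/- leukaemia at all 3 of its probe sets, by 1.62- to 1.71-fold. Probe set 1417045_at read 9.11, 9.54 and 9.33 in AID-/- and 8.49, 8.59 and 8.66 in AID+/+. The groups were separated by more than the range within either, and differed by 0.75 (SE 0.12, adjusted p = 0.00507). At 1448560_at the values were 8.02, 8.30 and 8.00 against 7.33, 7.41 and 7.25, a difference of 0.78 (SE 0.11, adjusted p = 0.00250). The dimmer 1447873_x_at, whose suffix marks probes that can also match other transcripts, gave 5.90, 6.40 and 6.21 against 5.11, 5.78 and 5.53. There the groups came within a short distance of each other, and the difference was 0.69 (SE 0.19, adjusted p = 0.0430). Dropping AID-/- replicate 2, AID-/- replicate 3, AID+/+ replicate 1 or AID+/+ replicate 3 ended it (adjusted p of 0.112, 0.115, 0.112 and 0.104).

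Bbc3 encodes PUMA, the p53-induced BH3-only protein that kills lymphocytes after DNA damage. It was not called at its single probe set. The AID-/- arrays stood at 7.13, 7.07 and 7.66 and the AID+/+ arrays at 7.19, 7.08 and 7.21. AID-/- replicate 3 was the highest, and the other 2 AID-/- arrays lay close to the AID+/+ arrays. The difference of 0.13 had a 95% interval of -0.23 to 0.48 (adjusted p = 0.671), and without AID-/- replicate 3 it was -0.06.

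Pmaip1, which encodes NOXA, had the largest difference among the BH3-only genes. NOXA is a p53-induced protein that binds MCL1 and A1. The values were 8.25, 7.70 and 7.69 on the AID-/- arrays and 6.22, 6.11 and 6.27 on the AID+/+ arrays. AID-/- replicate 1 was the highest, and the lowest AID-/- value was still above every AID+/+ value. The group means were 7.88 ± 0.32 and 6.20 ± 0.08 (SD, n = 3), a 3.21-fold increase (difference 1.68, SE 0.15, adjusted p = 0.000284). The call was kept under each of 13 alternative settings, with an adjusted p of at most 0.0325. Among all genes, those whose profile over the 6 arrays was nearest to that of Pmaip1, each centred on its own mean, were Syne2, Ldlrad3 and Ankrd33b. Their Euclidean distances were 0.26, 0.28 and 0.33 log2 units, and their differences 1.72, 1.74 and 1.55.

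Bad encodes a protein held inactive by AKT and PIM phosphorylation, and its probe sets did not move alike. At 1416583_at the values were 6.82, 6.95 and 7.11 in AID-/- and 6.53, 6.29 and 6.39 in AID+/+. These did not overlap and differed by 0.56 (SE 0.11, adjusted p = 0.0118). At the brighter 1416582_a_at they were 8.08, 7.93 and 8.06 against 7.83, 7.90 and 7.95. There AID-/- replicate 2 fell within the AID+/+ range, and the difference of 0.13 (95% interval -0.08 to 0.34) did not pass (adjusted p = 0.410). With the probe sets averaged, Bad was higher by 0.34 (SE 0.08, adjusted p = 0.0175).

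Bmf encodes a protein that is tethered to the cytoskeleton in healthy cells and freed by loss of attachment or of growth signals. It rose at 1 of its 3 probe sets. At 1454880_s_at, whose suffix marks probes shared by more than 1 transcript, the values were 6.75, 7.03 and 7.47 in AID-/- and 6.29, 6.22 and 6.33 in AID+/+. AID-/- replicate 3 was the highest, and the AID+/+ arrays lay close together. The difference was 0.80 (SE 0.17, adjusted p = 0.0145), which no longer passed when AID+/+ replicate 1 or replicate 2 was dropped (adjusted p of 0.0509 and 0.0538). The other probe sets, 1458325_x_at and 1422995_at, lay between 3.96 and 4.67 in both groups, below the median probe set. Their differences of 0.08 and -0.11 did not pass (adjusted p of 0.803 and 0.532). With the 3 averaged, Bmf differed by 0.26 (SE 0.10) and did not pass (adjusted p = 0.111).

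Bik and Hrk, a BH3-only protein of the endoplasmic reticulum and one known mainly from neurons and blood progenitors, were not called. The 3 probe sets of Bik lay between 2.79 and 5.09 over all arrays, with differences of 0.06 to 0.11 and overlapping groups. The brightest Bik probe set, 1449836_x_at, had a mean of 4.95, close to that of the median probe set (4.89). The others, 1420363_at and 1420362_a_at, lay lower, with means of 3.57 and 2.95. At 1449836_x_at the 95% interval was -0.10 to 0.32 (adjusted p = 0.514). Hrk read 5.76, 5.63 and 5.77 in AID-/- and 5.46, 5.91 and 6.19 in AID+/+ at 1450366_at. The AID-/- arrays sat inside the AID+/+ range, and the difference of -0.14 had an interval of -0.53 to 0.26 (adjusted p = 0.681). Its other probe set, 1439854_at, differed by -0.22 (adjusted p = 0.423).

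Bnip3, the hypoxia-induced mitophagy receptor, was not called. The AID-/- arrays stood at 10.08, 10.74 and 10.90 and the AID+/+ arrays at 10.80, 10.92 and 11.21. AID-/- replicate 1 was lowest and AID-/- replicate 3 lay within the AID+/+ range. The difference of -0.40 (SE 0.21) had a 95% interval of -0.89 to 0.08 and an adjusted p of 0.270. Without AID-/- replicate 1 it was -0.16 (adjusted p = 0.567).

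The AID-/- arrays did not keep 1 order across the genes that rose. Among the 10 called probe sets, AID-/- replicate 2 was the highest of its group at 6, replicate 1 at 2 and replicate 3 at 2. Replicate 1 was the lowest at 5 and replicate 3 at 5. Pmaip1 was highest in replicate 1, Bmf in replicate 3, and all 3 Bid probe sets in replicate 2. Leaving out 1 array kept between 7 and 10 of the 10 calls, the fewest without AID+/+ replicate 1. An ordinary linear model, which estimates each probe set's spread from its own 6 values, called only 3 (Pmaip1, Bcl2l11 at 1435448_at and Bid at 1448560_at), so the count rests on limma's pooling of the spread over probe sets.

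**Figure D3:**
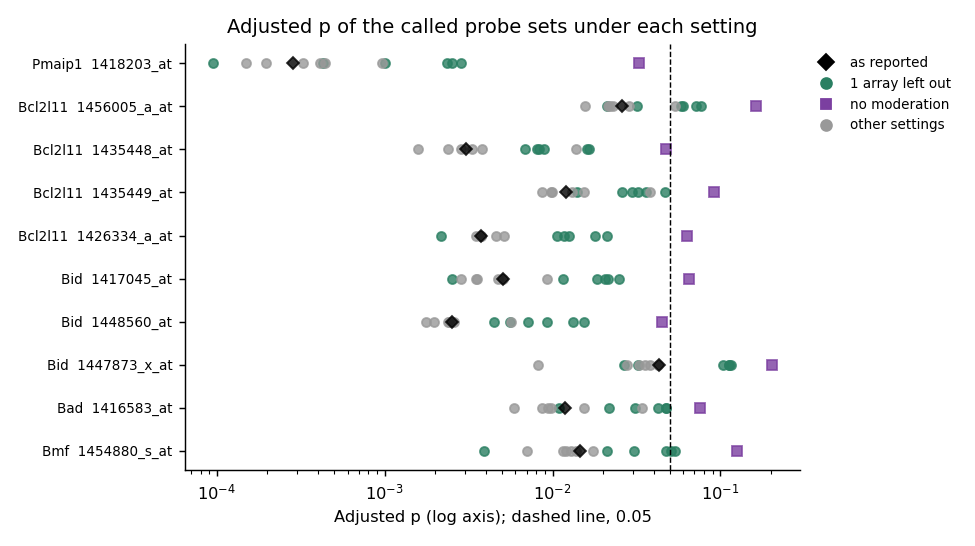
Adjusted p (horizontal log axis) of the 10 called probe sets as reported (black), with 1 array left out (green), without moderation of the spread (purple) and under the other settings (grey); the dashed line is 0.05. Pmaip1 stays left of the line under all settings shown, and 7 of the 10 cross it without moderation.

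The partners and regulators of the BH3-only proteins were read from lists, each gene by its brightest probe set. Against 17.1% called over all genes (9.49% higher and 7.66% lower), the survival proteins that BH3-only proteins bind had 1 of 5 measured genes called. Bcl2l2, which encodes BCL-W, fell by 1.20 (SE 0.17, adjusted p = 0.00225), but its other 3 probe sets differed by only -0.44 to -0.21 and were not called. Bcl2 stood at 8.36 ± 0.52 in AID-/- and 9.20 ± 0.51 in AID+/+ (SD, n = 3) and did not pass (adjusted p = 0.113). Mcl1, the main partner of NOXA, was at 11.38 ± 0.16 and 11.23 ± 0.07 (adjusted p = 0.424). Bcl2l1, which encodes BCL-XL, differed by 0.54 (SE 0.15) just outside the threshold (adjusted p = 0.0511). It passed when AID-/- replicate 1 was dropped (adjusted p = 0.0360), and with median centring, a dim-value filter, an intensity trend or array weights (adjusted p of 0.0295 to 0.0428). With quantile normalization, no moderation, a replicate block or any other array left out it did not pass. The other 3 probe sets of Bcl2l1 differed by -0.06 to 0.67 and were not called. Over the 5 survival genes the median difference was -0.16.

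Among pore-forming effectors, apoptosome parts and caspases, 4 of 17 measured genes were higher, 0 lower and 13 did not pass, with a median of 0.14. Casp6, an executioner caspase, was higher by 1.76 (SE 0.14, adjusted p = 0.000160) at 1 of its 2 probe sets; the other differed by -0.03. The initiator gene Casp9 was higher by 0.43 (SE 0.09, adjusted p = 0.0143), and its other 2 probe sets were also called higher. At the brightest probe set it no longer passed when AID+/+ replicate 1 was dropped (adjusted p = 0.0503). Only 1 of the 4 passed with AID+/+ replicate 1 dropped, and 2 passed with AID-/- replicate 1, AID-/- replicate 2, AID+/+ replicate 2 or AID+/+ replicate 3 dropped. In the death receptor list 2 of 10 were higher and 0 lower. The receptor gene Fas was at 5.80 ± 0.06 in AID-/- and 4.45 ± 0.19 in AID+/+ (SD, n = 3), and the adaptor gene Tradd was higher by 0.43 (SE 0.09) at 1 of its 3 probe sets. Casp8, the caspase that cleaves BID, differed by 0.03 and did not pass (adjusted p = 0.917).

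**Figure D4:**
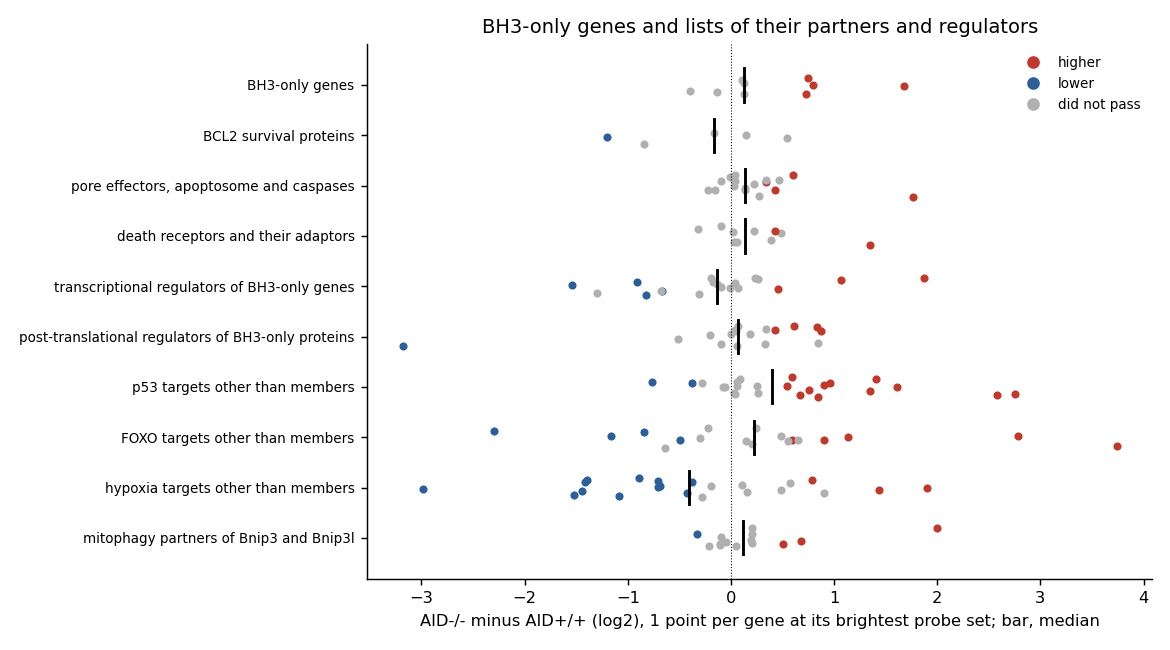
Difference of each gene at its brightest probe set (horizontal axis, log2) for the 9 BH3-only genes and 9 lists of partners, regulators and targets; red and blue points passed as higher or lower in AID-/-, grey points did not pass, and black bars are medians. The list of p53 targets has its median at 0.40 and that of hypoxia targets at -0.40.

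Transcriptional regulators of BH3-only genes went both ways, with 3 of 19 higher, 4 lower and 12 not passing, and a median of -0.14. Foxo1 was higher by 1.07 (SE 0.14, adjusted p = 0.00177), at 3 of its 4 probe sets, whereas Foxo4 fell by 0.82 (SE 0.15, adjusted p = 0.00786) at 1 of 2. Foxo3 differed by 0.23 (SE 0.13) and did not pass at any probe set (adjusted p = 0.322 at the brightest). Nr3c1, whose product is the receptor that induces BIM under glucocorticoids, fell by 1.54 (SE 0.10, adjusted p = 3.04e-05), with 4 of its 5 other probe sets also lower. The stress-response genes Ddit3 and Atf4 fell by 0.91 (SE 0.13) and 0.67 (SE 0.10), but the other probe set of Ddit3 differed by -0.21 and the other 2 of Atf4 by -0.45 and -0.03, and none of these was called. Jun, part of AP-1, was higher by 1.87 (SE 0.34, adjusted p = 0.00793). Among genes that control BH3-only proteins after translation, 4 of 17 were higher, 1 lower and 12 did not pass. Dynll2, the dynein light chain that tethers BMF, was higher by 0.87 (SE 0.09, adjusted p = 0.000603) at 1 of 2 probe sets. Pim1, a kinase that phosphorylates BAD, was higher by 0.83 (SE 0.13, adjusted p = 0.00386). Gzmb, a granule protease that can cleave BID, fell by 3.18 (SE 0.48, adjusted p = 0.00344), from a group with an SD of 1.18. Of 4 measured NK cell markers Klrd1 was also lower, and their summed level (on the linear scale) was 60 to 70 in AID-/- and 71 to 86 in AID+/+. Of 6 T cell markers 0 were called, with sums of 167 to 186 and 182 to 190. No marker reads 0 on this scale; the part of such cells was not tested.

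Other known targets of p53, the tumour suppressor that induces Pmaip1 and Bbc3, were higher at 12 of 24 measured genes and lower at 2, with a median of 0.40. This is 58.3% of the list, against 17.1% over all genes. The list was chosen with earlier results of these data known, so the share describes it and tests nothing. Cdkn1a, which encodes p21, was 6.75-fold higher and Phlda3, an AKT inhibitor, 5.98-fold higher. The RNA-binding factor gene Zmat3 and the cyclin gene Ccng1 were 3.05-fold and 2.65-fold higher. Sesn2, a stress-induced inhibitor of mTOR signalling, fell by 0.77 (SE 0.15, adjusted p = 0.0114). The second lower gene, Rrm2b, fell by 0.38, but 2 of its 3 other probe sets were higher, and it no longer passed when any array but AID-/- replicate 1 was dropped (adjusted p of at most 0.108). Of the BH3-only genes in this class, Pmaip1 passed and Bbc3 did not; the difference between those 2 genes was not tested.

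Among FOXO targets other than Bcl2l11, 5 of 18 were higher, 4 lower and 9 did not pass, with a median of 0.22. The lists overlap. Sesn1 and Gadd45a, both higher, were also counted among the p53 targets, as was Fas of the death receptor list. Gadd45a no longer passed when any array but AID-/- replicate 1 was dropped (adjusted p of at most 0.101). Rag1 and Rag2, the V(D)J recombinase genes, were higher by 3.74 (SE 0.21) and 2.78 (SE 0.20). Klf2, a lymphocyte homing factor, fell by 2.30 (SE 0.45), the cyclin gene Ccng2 by 1.16 (SE 0.17) and Cdkn1b, which encodes p27, by 0.84 (SE 0.11), the last at 1 of 2 probe sets. Dropping AID-/- replicate 3, or either of AID+/+ replicates 2 and 3, left 3 higher.

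Hypoxia targets, the class to which Bnip3 belongs, were lower at 12 of 22 genes and higher at 3, with a median of -0.40. Of the list 68.2% was called, against 17.1% over all genes. This list too was chosen with earlier results of these data known, so its share is a description and not a test. Bhlhe40, a transcriptional repressor, was 7.93-fold lower, Mxi1, a MYC antagonist, 2.86-fold, Vegfa, the vascular growth factor, 2.66-fold, and Pdk1, which restrains pyruvate use by mitochondria, 2.63-fold. Car9, carbonic anhydrase IX, was higher by 0.79 (SE 0.10). The count of higher genes was 1 without AID+/+ replicate 3. Hif1a itself was higher by 0.46 (SE 0.11), which no longer passed when replicate 1 or replicate 3 of either group was dropped (adjusted p of at most 0.0823). Among mitophagy partners of BNIP3, 3 of 14 were higher, 1 lower and 10 did not pass. Map1lc3a, an LC3 protein of autophagosomes, was higher by 2.00 (SE 0.24) at 1 of 2 probe sets, and its relative Gabarapl2 by 0.68 (SE 0.11) while its other probe set fell by 0.40. The lower gene, Pink1, fell by 0.33 at its brightest probe set, which no longer passed once any 1 array was dropped (adjusted p of at most 0.109). Its other probe set was also called lower, with a difference of -1.09.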

How the data were processed

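RNA of 3 AID-/- and 3 AID+/+ leukaemias was hybridised to Affymetrix arrays, from 6 micrograms of total RNA each, per the labels' protocols. The deposited table holds log2 expression values of each array; RMA and Partek are named in the submitters' processing notes, with no version or order of steps. Genome build and detection calls are not given in the sources used here, so no probe set was called absent. Precision is limited by the number of arrays.

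The 64 array controls among the 45101 features were removed. Of the 45037 tested, 34945 carry 1 symbol, 932 several and 9160 none. Current RefSeq symbols (GRCm38.p6) were assigned through Entrez identifiers, which matched 34737. The model was limma's (version 3.58.1, R 4.3.3), with lmFit, eBayes and genotype as its single factor, two-sided, with Benjamini-Hochberg adjustment over 45037 probe sets and no filter on dim values. Adjusted p-values and SEs are from this fit unless a setting is named. Intervals are 95% and use the moderated SE. The fit was tested on simulated data.

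Same-numbered arrays did not deviate together (correlations of deviations from the group means of -0.05, -0.07 and 0.03), so numbers were not treated as pairs. Alternatives were a dim-value filter, median centring, quantile normalization, array weights, an intensity trend, no moderation, the replicate block, 1 value a gene and leaving out each array. Every BH3-only gene is described, with at most 6 called genes of each list by smallest p, and the 3 genes nearest in profile to Pmaip1. Bcl2, Bcl2l1, Mcl1, Casp8, Foxo3, Hif1a, Sesn2, Rrm2b and Gadd45a fall outside that rule and were chosen after their values were seen. The members and lists were chosen with earlier results of these data known.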

Additional observations from a re-analysis of the deposited data

How the results depend on the processing

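The 10 BH3-only probe sets called higher stayed at 10 with a dim-value filter, median centring, quantile normalization, array weights and an intensity trend, and 0 were called lower in any setting. With the replicate block 9 were called; Bcl2l11 at 1456005_a_at then had an adjusted p of 0.0536. Without moderation the count was 3, and the genes of the lists were called higher at 17 and lower at 9, against 33 and 25 of 139. Leaving out 1 array gave 7 to 10 BH3-only probe sets, and 24 to 34 list genes higher and 20 to 25 lower. Of the 10 called probe sets, 3 kept the call in all 13 settings and 0 changed direction. By gene the count of 4 was the same fitted on 1 probe set a gene or on their mean, but in the latter Bad entered and Bmf left. Some differences that did not pass changed sign with 1 array left out. Bbc3 ranged from -0.06 (without AID-/- replicate 3) to 0.24, Bmf at 1458325_x_at from -0.08 (without AID-/- replicate 2; -0.02 without AID+/+ replicate 1) to 0.17, Bik at 1420363_at from -0.06 (without AID+/+ replicate 3) to 0.20, and Hrk at 1450366_at from -0.33 to 0.03 (without AID+/+ replicate 3). The cause of these changes was not tested. Quantile normalization and median centring shifted all differences by a median of 0.02 and 0.03. Values near the low end of the scale, as for Bik at 1420363_at and 1420362_a_at, hold little order.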

Other observations

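The 3 probe sets annotated jointly to Bnip3l, the second mitophagy receptor, and its pseudogene Bnip3l-ps were lower in AID-/- leukaemia, at a level that cannot be assigned to either. Probe set 1416922_a_at read 9.54, 9.76 and 10.16 on the AID-/- arrays and 11.17, 11.18 and 11.47 on the AID+/+ arrays, with no overlap. It fell by 1.45 (SE 0.16, limma adjusted p = 0.000846). The other probe sets, 1416923_a_at and 1448525_a_at, fell by 1.46 (SE 0.11) and 1.52 (SE 0.13), again without overlap. Bnip3, whose single probe set differed by -0.40, did not pass. The difference between these probe sets and Bnip3 was not tested.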
